A study of Mus musculus with 21 samples.

Results

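The 8 genes described here are Serpinb2, Btg2, Gadd45a, Gadd45b, Gadd45g, Bcl6, Ier2 and Ier5, a set of survival, stress-response and immediate-early genes. They were picked by symbol, with the responses to bicuculline in these same libraries already known. They are 8 of the 24984 genes of the count table, and all 8 were among the 16959 genes that passed a filter on low counts. Because bicuculline against water chose them, that contrast is given for them as a description, with no test. Tests are kept for other comparisons (4 h against 1 h of bicuculline, MM401 against DMSO, and interactions), which share libraries with that contrast.

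The assay was BrU-seq, a measure of nascent RNA: bromouridine given to living cells enters new transcripts, which are then pulled out and sequenced, here as paired reads of 150 bases. The material was primary cortical cultures of CD1 mice on day 17 in vitro, in 3 biological replicates per group and of mixed sex. Cultures were held for 30 min in DMSO, the solvent, or in 25 µM MM401, a peptidomimetic that blocks the binding of the H3K4 methyltransferase MLL1 to WDR5. They then received 40 µM bicuculline-methiodide, which blocks GABA-A receptors and so raises network activity, or sterile water as its vehicle. The 7 groups were DMSO with water for 4 h, DMSO with bicuculline for 1 h and for 4 h, MM401 with water for 1 h and for 4 h, and MM401 with bicuculline for 1 h and for 4 h. Every culture, controls included, had 2 mM bromouridine in its last 30 min, so a value shows RNA made in that window. DMSO with water for 1 h was not analysed here, so both bicuculline groups in DMSO were set against water at 4 h.

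Calcium entry through synaptic NMDA receptors switches on a set of genes in neurons that protect them against later insults, and several of the 8 genes (Serpinb2, Btg2, Bcl6, Gadd45b and Gadd45g) belong to that set. Signals from calcium reach such genes through transcription factors held ready on their promoters, among them CREB at the cAMP response element (CRE) and the serum response factor at the CArG box, while AP-1 is itself made in the first wave of the response. The GADD45 genes were first known from growth arrest and DNA damage, the IER genes from the immediate response to growth factors, and Btg2 as a p53 target that limits proliferation.

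The stretches just upstream of the start sites are shown for Btg2, which had the highest level of the 8 genes after 1 h, for Serpinb2, which went on increasing to 4 h, and for the 3 GADD45 genes, which are paralogues with unlike time courses. They are from RefSeq (build GRCm38.p6) and run 5′ to 3′ on the gene's own strand, ending at the base before the first listed start site. They lie at chr1:134079156-134079345 (minus strand) for Btg2, chr1:107511233-107511422 (plus strand) for Serpinb2, chr13:51846485-51846674 (plus strand) for Gadd45g, chr10:80929901-80930090 (plus strand) for Gadd45b and chr6:67037408-67037597 (minus strand) for Gadd45a. Capitals mark matches, on either strand, to 7 motifs: the CRE (TGACGTCA) and its core (TGACG), AP-1 (TGANTCA), the CArG box, the E-box (CACGTG), the CCAAT box (CCAAT) and the TATA box (TATAAA). Every full CRE also holds the core.
Btg2: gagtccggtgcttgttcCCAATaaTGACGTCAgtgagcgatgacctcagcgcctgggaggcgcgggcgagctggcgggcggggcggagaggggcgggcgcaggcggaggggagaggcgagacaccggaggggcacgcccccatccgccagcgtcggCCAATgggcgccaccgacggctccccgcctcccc
Serpinb2: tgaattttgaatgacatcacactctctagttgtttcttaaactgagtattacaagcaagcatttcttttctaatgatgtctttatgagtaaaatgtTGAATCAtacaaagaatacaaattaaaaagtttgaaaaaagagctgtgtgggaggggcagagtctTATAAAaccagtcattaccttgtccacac
Gadd45g: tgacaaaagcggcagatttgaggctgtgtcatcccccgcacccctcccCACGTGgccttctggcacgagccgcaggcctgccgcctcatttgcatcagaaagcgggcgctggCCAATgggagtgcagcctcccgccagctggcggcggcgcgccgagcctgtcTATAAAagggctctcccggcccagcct
Gadd45b: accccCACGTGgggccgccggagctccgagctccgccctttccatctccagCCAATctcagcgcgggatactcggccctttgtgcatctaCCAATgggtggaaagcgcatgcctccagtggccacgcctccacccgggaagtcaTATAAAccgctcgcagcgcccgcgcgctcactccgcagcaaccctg
Gadd45a: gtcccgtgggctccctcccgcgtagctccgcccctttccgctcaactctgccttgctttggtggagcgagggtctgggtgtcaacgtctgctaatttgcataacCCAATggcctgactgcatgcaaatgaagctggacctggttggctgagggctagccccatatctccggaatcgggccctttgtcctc

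Windows of 250 bases were searched for 7 of the 8 genes (9 windows, since Serpinb2 and Bcl6 list 2 start sites each). Ier2 had no window and was not searched. The full CRE occurred once, in Btg2, from 166 to 159 bases before its start. Of all 32851 windows of that length in the table, 1.55% held it. The AP-1 match belonged to Serpinb2, from 94 to 88 bases before the first of its start sites in the promoter table, and 6.75% of all windows held one. An E-box lay in the windows of Gadd45b, Gadd45g and Bcl6, against 6.02% of all windows. A TATA box stood 29 to 24 bases before the start of Serpinb2 and 27 to 22 bases before that of Gadd45g, and was also found in Gadd45b, against 12.4% of all windows. The CRE core occurred in Btg2 and Bcl6 (17.8% of all windows) and the CCAAT box in Serpinb2, Btg2, Ier5, Gadd45a, Gadd45b and Gadd45g (33.8%). No window of these 7 genes held a CArG box, which 1.47% of all windows did. In Bcl6 the E-box and a CRE core overlapped. These are matches of letters in a window, and the files hold no measure of binding.

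Depth ran from 49886348 to 87939384 counts in genes over 20 libraries, and replicate 3 of MM401 with water for 4 h, with 316741, was left out throughout. The counts of the 8 genes in that library were 0 to 8. Elsewhere the fewest counts were those of Serpinb2, 14 to 625 per library, and the most were those of Btg2, 859 to 15827. Levels are given as CPM, the counts of a gene relative to the library total after scaling by TMM, edgeR's correction for library composition. The cultures held RNA of several cell types: summed over fixed markers, CPM ran from 3180 to 5022 for neurons, 414 to 846 for astrocytes, 137 to 183 for the oligodendrocyte lineage and 23.4 to 39.9 for microglia, while 3 endothelial markers together reached 1.44 to 3.01. In such bulk libraries fewer cells of a type and less RNA per cell cannot be told apart.

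The clearest division among the 8 genes was one of time. Btg2, Gadd45g and Ier2 were highest after 1 h of bicuculline, Serpinb2 after 4 h, Gadd45b and Bcl6 stood as high at 1 h as at 4 h, and Gadd45a and Ier5 changed least. All 6 libraries with bicuculline for 1 h lay above all 8 water libraries for 6 of the 8 genes, Gadd45a and Ier5 being the exceptions, and 11.7% of all tested genes did the same. At 4 h the same held for 7 of the 8 genes, Ier2 being the exception, against 16.3% of all tested genes. Nothing is read from these counts, because that contrast chose the genes. Markers of cell types moved as well: those of excitatory neurons summed to 463 to 594 CPM in water, 621 to 778 at 1 h and 802 to 960 at 4 h, those of inhibitory neurons to 317 to 378, 483 to 609.7 and 578 to 675 CPM, and those of astrocytes to 414 to 696, 717 to 846 and 569 to 656 CPM. Markers of the oligodendrocyte lineage summed to 137 to 157 CPM in water, 162 to 180 at 1 h and 165 to 183 at 4 h. The part of these markers in the levels of the 8 genes was not tested.

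**Figure D1:**
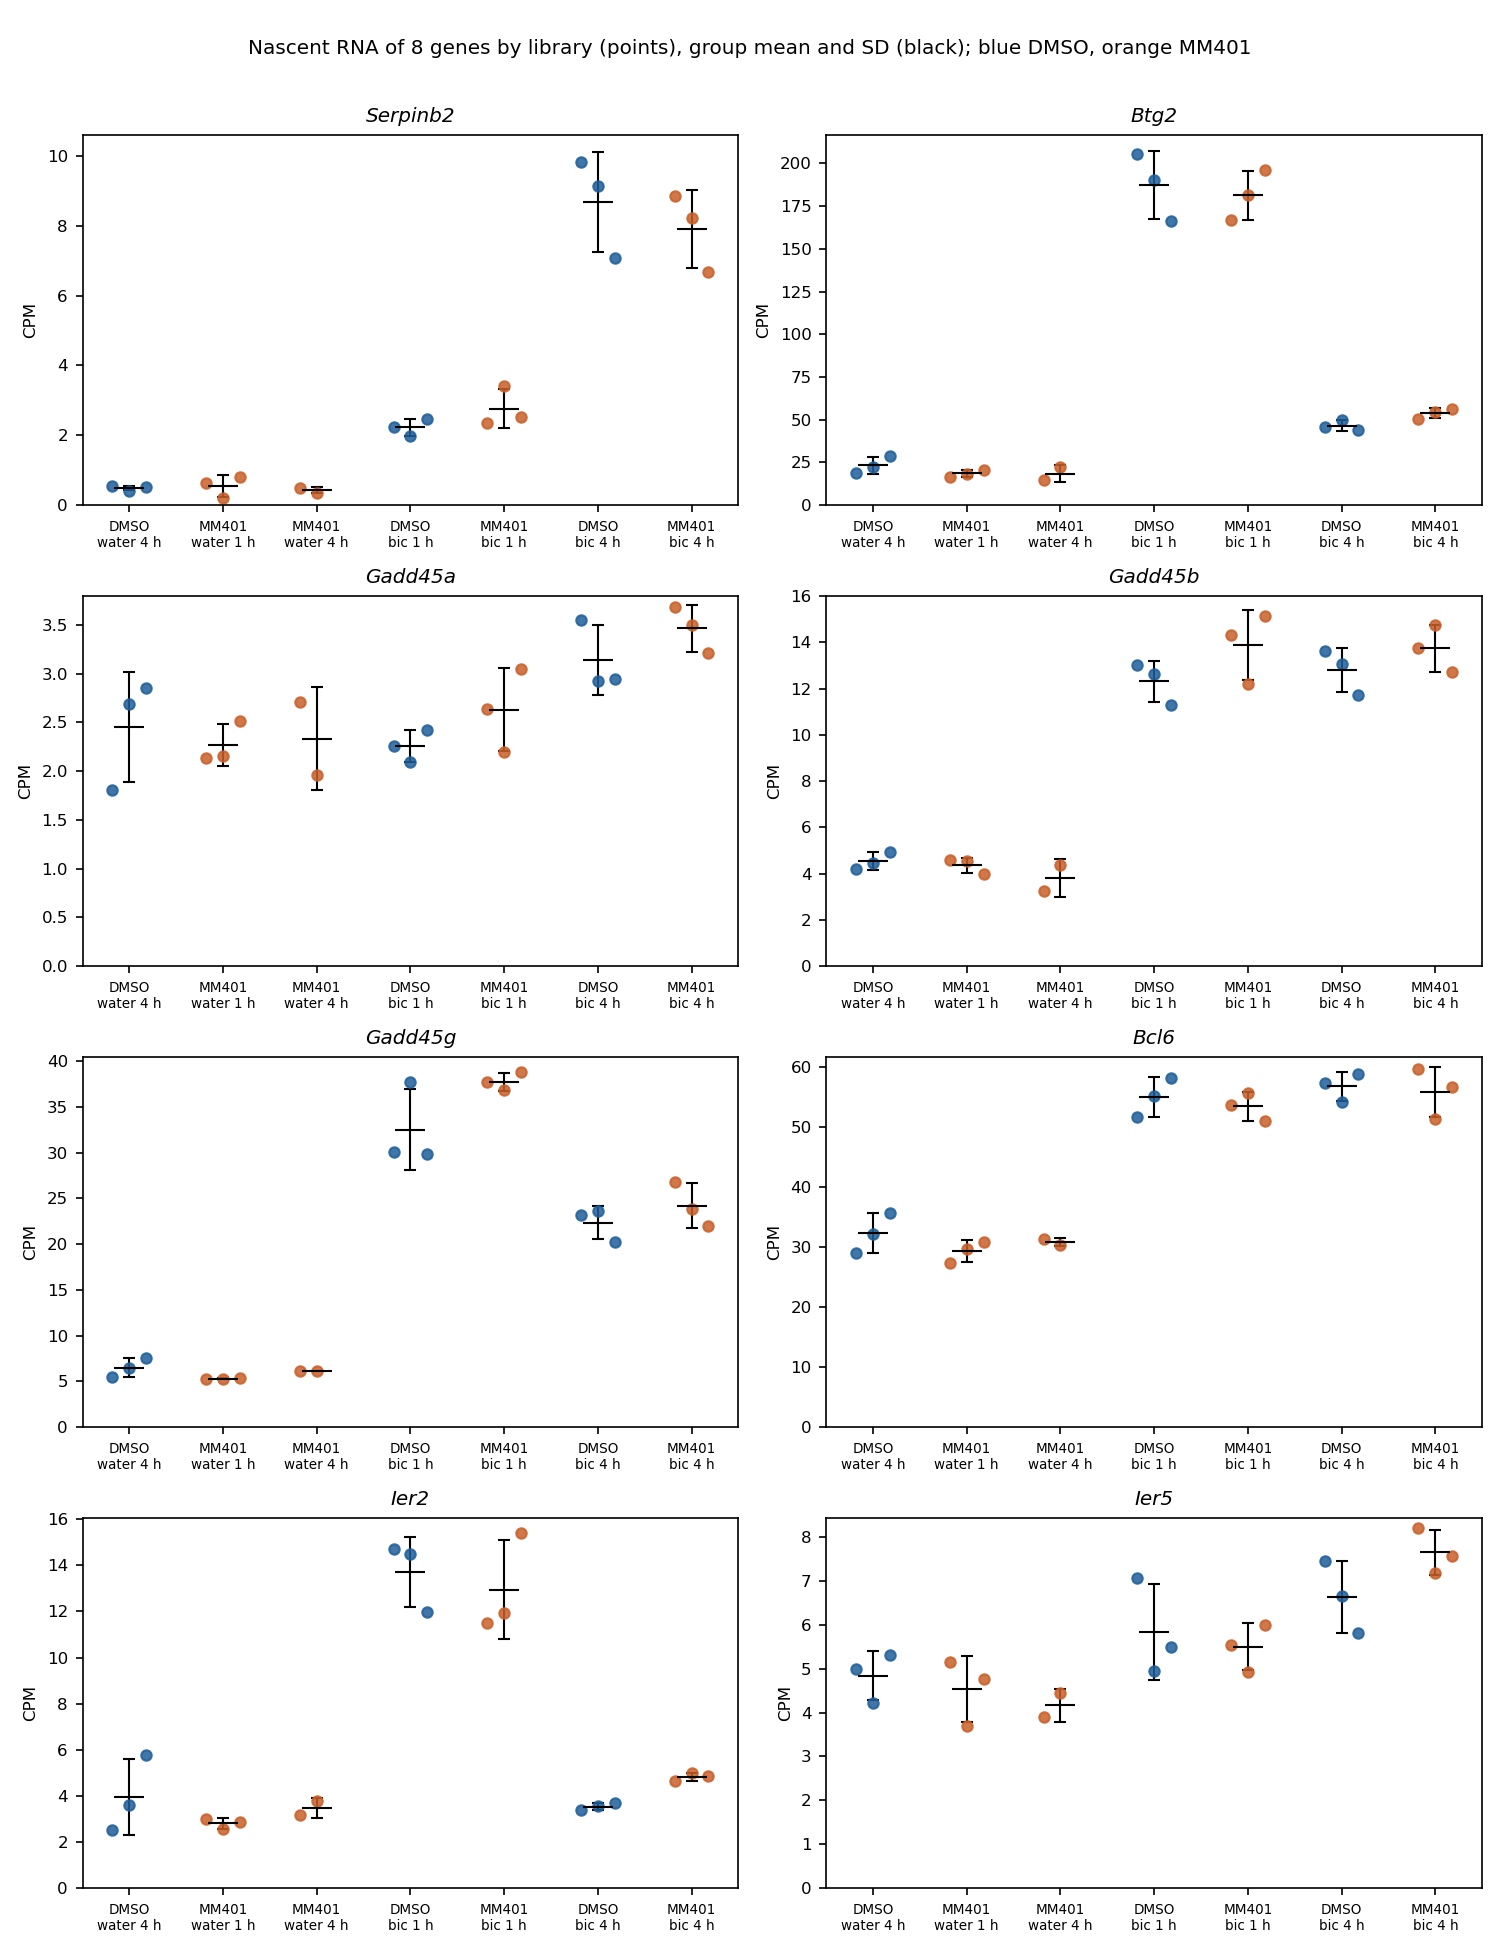
CPM of the 8 genes in each library (points) of the 7 groups, with the group mean and SD in black, DMSO in blue and MM401 in orange; each panel has its own axis, which starts at 0. The 6 libraries with bicuculline for 1 h stand highest for Btg2, Gadd45g and Ier2, and the 6 with bicuculline for 4 h stand highest for Serpinb2.

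Btg2 (chromosome 1, 134074864 to 134079155 in mm10, minus strand) encodes an antiproliferative protein that binds the CCR4-NOT deadenylase. In DMSO its level was 18.9, 22.15 and 28.6 CPM in water, 205, 190.3 and 166 CPM after 1 h of bicuculline, and 45.66, 49.9998 and 44.02 CPM after 4 h. In MM401 it was 16.6, 18.4 and 20.7 CPM in water at 1 h, 14.9 and 22.1 CPM in water at 4 h, 167, 181 and 196 CPM after 1 h of bicuculline, and 50.4, 54.5 and 56.3 CPM after 4 h. The 3 levels (water, 4 h and 1 h, in that order) did not overlap in either pretreatment. The mean in DMSO was 8.07 times that in water at 1 h and 2.01 times at 4 h, so 14.2% of the increase seen at 1 h was still there at 4 h. In MM401, against water at 4 h, that share was 21.6%. The log2 fold change over water at 4 h in DMSO was 1.00, and 0.72 without TMM scaling.

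Bcl6 (chromosome 16, 23965049 to 23988852, minus strand) encodes a zinc-finger repressor that recruits the BCOR and SMRT corepressors. Its 8 water libraries ran from 27.3 to 35.7 CPM with a median of 30.6. The 6 libraries with bicuculline for 1 h ran from 50.9 to 58.1 CPM with a median of 54.4, and the 6 for 4 h from 51.3 to 59.6 CPM with a median of 57.0. Bicuculline and water did not overlap, and the bicuculline times overlapped almost fully. The fold over water in DMSO was small and even, 1.70 at 1 h and 1.76 at 4 h. Without TMM scaling the log2 fold change was 0.57 in place of 0.77 at 1 h and 0.53 in place of 0.81 at 4 h.

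The 3 GADD45 genes encode small acidic proteins that bind MAP3K4, PCNA and cyclin B1-CDK1 and have been tied to DNA demethylation in neurons. Gadd45g (chromosome 13, 51846674 to 51848474, plus strand) had 5.45, 6.498 and 7.51 CPM in DMSO with water, 30.1, 37.7 and 29.8 CPM after 1 h of bicuculline and 23.1, 23.6 and 20.3 CPM after 4 h. In MM401 it had 5.27 to 5.36 CPM in water at 1 h (n = 3), 6.12 CPM in both water libraries at 4 h, 36.8 to 38.8 CPM after 1 h of bicuculline and 22.0 to 26.8 CPM after 4 h. Its 1 h libraries all lay above its 4 h libraries, and in DMSO 61.0% of the increase at 1 h remained at 4 h. Gadd45b (chromosome 10, 80930090 to 80932204, plus strand) had 4.20, 4.48 and 4.95 CPM in DMSO with water, 13.02, 12.6 and 11.3 CPM after 1 h and 13.6, 13.1 and 11.7 CPM after 4 h. In DMSO Gadd45g was at 5.01 times water at 1 h and 3.44 times at 4 h, whereas Gadd45b was at 2.71 and 2.82 times. Over all libraries Gadd45b ran from 3.24 to 4.95 CPM in water, 11.3 to 15.1 CPM at 1 h and 11.7 to 14.8 CPM at 4 h.

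Gadd45a (chromosome 6, 67035095 to 67037407, minus strand), the p53-induced founder of the family, moved little. It ran from 1.81 to 2.85 CPM over the 8 water libraries (median 2.33), from 2.09 to 3.05 CPM over the 6 at 1 h (median 2.34) and from 2.93 to 3.68 CPM over the 6 at 4 h (median 3.35). The water and 1 h libraries overlapped, and the 4 h libraries lay just above those in water. The gene overlaps E230016M11Rik on the other strand, and the use of strand in counting is not given in the sources used here, so reads of the pair cannot be told apart. In DMSO its log2 fold change was -0.13 at 1 h and, without replicate 3 of the water group, 0.0003. At 4 h in DMSO it was 0.34, and 0.057 without TMM scaling.

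Serpinb2 (chromosome 1, 107511422 to 107525600, plus strand) encodes plasminogen activator inhibitor type 2, a serine protease inhibitor that is largely kept inside the cell. It was the least transcribed of the 8 genes at rest, with 0.534, 0.411 and 0.518 CPM in DMSO with water (29 to 39 counts per library). It had 2.25, 1.98 and 2.46 CPM after 1 h of bicuculline and 9.81, 9.15 and 7.08 CPM after 4 h. In MM401 it had 0.208 to 0.812 CPM over the 5 water libraries, 2.36, 3.40 and 2.51 CPM after 1 h of bicuculline and 8.84, 8.21 and 6.68 CPM after 4 h. Water, 1 h and 4 h were 3 separate levels in both pretreatments. In DMSO the mean was 4.58 times water at 1 h and 17.8 times at 4 h, the highest fold of the 8 genes at that time. The RefSeq table gives the gene a span of 24709 bp, wider than the 14179 bp that were counted and beginning upstream of the stretch searched for motifs.

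Ier2 (chromosome 8, 84661330 to 84662852, minus strand) encodes an immediate-early nuclear protein. In DMSO it had 2.54, 3.59 and 5.78 CPM in water, 14.7, 14.5 and 11.96 CPM after 1 h of bicuculline and 3.38, 3.56 and 3.68 CPM after 4 h. In MM401 it had 2.57 to 3.02 CPM in water at 1 h (n = 3), 3.19 and 3.80 CPM in water at 4 h, 11.5, 11.9 and 15.4 CPM after 1 h of bicuculline and 4.66, 4.99 and 4.85 CPM after 4 h. At 4 h in DMSO the gene was back within its range in water, with a log2 fold change of -0.18 that became 0.16 without replicate 3 of the water group. In MM401 the 3 libraries at 4 h stood above both water libraries. Ier5 (chromosome 1, 155096366 to 155099636, minus strand), whose product binds the phosphatase PP2A and heat shock factor HSF1, varied least after Gadd45a. It ran from 3.69 to 5.30 CPM in water, 4.93 to 7.06 CPM at 1 h and 5.81 to 8.20 CPM at 4 h. Only the 4 h libraries cleared the water range. At 4 h its mean was 1.37 times water in DMSO and 1.83 times in MM401, where that of Bcl6 was 1.81 times. In DMSO the log2 fold change of Ier5 at 4 h was 0.46, and 0.18 without TMM scaling.

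Per kilobase of counted gene, the order of the 8 genes in DMSO with water was Btg2 (5.41 ± 1.15 CPM per kb, SD, n = 3), Gadd45g (3.60 ± 0.572), Ier2 (2.61 ± 1.08), Gadd45b (2.15 ± 0.180), Ier5 (1.48 ± 0.169), Bcl6 (1.36 ± 0.141), Gadd45a (1.06 ± 0.244) and Serpinb2 (0.0344 ± 0.00474). Neighbours in this order from Gadd45g to Gadd45a differed by less than the sum of their SDs, except Gadd45b and Ier5. After 1 h of bicuculline Btg2 reached 43.6 ± 4.62 CPM per kb, followed by Gadd45g with 18.1 ± 2.48 and Ier2 with 9.002 ± 0.996. After 4 h Gadd45g was first, with 12.4 ± 1.02 CPM per kb, and Btg2 had 10.8 ± 0.720, a difference smaller than the sum of their SDs. Serpinb2 stayed last at every time, with 0.612 ± 0.101 CPM per kb at 4 h.

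The passage from 1 h to 4 h of bicuculline was tested with edgeR's quasi-likelihood test, with no water library in the contrast. Benjamini-Hochberg adjustment ran over all 16959 genes. Both groups also enter the bicuculline responses known when the genes were chosen, so the count of genes called is no independent evidence. Of the 8 genes, 5 were called (adjusted p under 0.05) in DMSO, 2 higher and 3 lower at 4 h, against 34.2% of all tested genes (19.1% higher and 15.2% lower). In MM401 it was also 5, 2 higher and 3 lower, against 33.6% (17.5% and 16%). Btg2, Gadd45g and Ier2 fell and Serpinb2 rose in both pretreatments. Without TMM scaling, 39.2% of all calls were upward in DMSO and 65% in MM401, against 55.7% and 52.3% with it, while all calls of these 4 genes held under every setting tried.

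Btg2 fell 4.02-fold in DMSO (log2 fold change -2.01 ± 0.15, SE; adjusted p = 2.24e-08 by edgeR) and 3.38-fold in MM401 (-1.76 ± 0.14, adjusted p = 1.11e-07). Ier2 fell 3.87-fold in DMSO (-1.95 ± 0.19, adjusted p = 1.61e-07 by edgeR) and 2.68-fold in MM401 (-1.42 ± 0.19, adjusted p = 7.44e-06). Both are immediate-early genes, and theirs were the steepest declines of the set. Gadd45g fell 1.46-fold in DMSO (-0.54 ± 0.098, adjusted p = 0.000142 by edgeR) and 1.56-fold in MM401 (-0.64 ± 0.098, adjusted p = 2.41e-05). Serpinb2 rose 3.90-fold in DMSO (1.96 ± 0.22, adjusted p = 8.58e-07 by edgeR) and 2.86-fold in MM401 (1.51 ± 0.22, adjusted p = 2.13e-05). For these 4 genes every 1 h library of either pretreatment was on one side of every 4 h library, as it was for 12.4% of all genes with 1 h on top and 14.3% with 4 h on top.

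Gadd45a and Ier5, the flattest genes, were each called in 1 pretreatment with small changes. Gadd45a was 1.39-fold higher at 4 h in DMSO (0.48 ± 0.16, adjusted p = 0.0269 by edgeR) and had 0.39 ± 0.16 in MM401 (adjusted p = 0.068). Its call in DMSO was lost without replicate 1 or replicate 2 at 1 h, without replicate 1 at 4 h (adjusted p = 0.0594, 0.101 and 0.120 by edgeR), without TMM scaling (0.123) and with the shallow library kept (0.0780). Without replicate 3 at 1 h it was called in MM401 too (adjusted p = 0.0437 by edgeR). Ier5 was 1.39-fold higher at 4 h in MM401 (0.48 ± 0.14, adjusted p = 0.0112 by edgeR), against 0.18 ± 0.14 in DMSO (adjusted p = 0.341). Its call was lost without replicate 2 at 1 h (adjusted p = 0.0634 by edgeR), without replicate 1 at 4 h (0.0505) and with the shallow library kept (0.0505). Microglial markers summed to 23.4 to 32.2 CPM at 1 h and 31.1 to 39.9 CPM at 4 h, with all 5 markers detected in every library. Their part in the small rises of Gadd45a and Ier5 was not tested.

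Gadd45b and Bcl6 were not called at either pretreatment, and the intervals were narrow. For Gadd45b the 95% interval of 4 h against 1 h was -0.16 to 0.27 in DMSO (log2 scale, edgeR adjusted p = 0.748) and -0.23 to 0.20 in MM401 (0.927). For Bcl6 it was -0.10 to 0.20 in DMSO (edgeR adjusted p = 0.673) and -0.086 to 0.21 in MM401 (0.542). A change as large as that of Gadd45g lay outside each of these intervals.

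**Figure D2:**
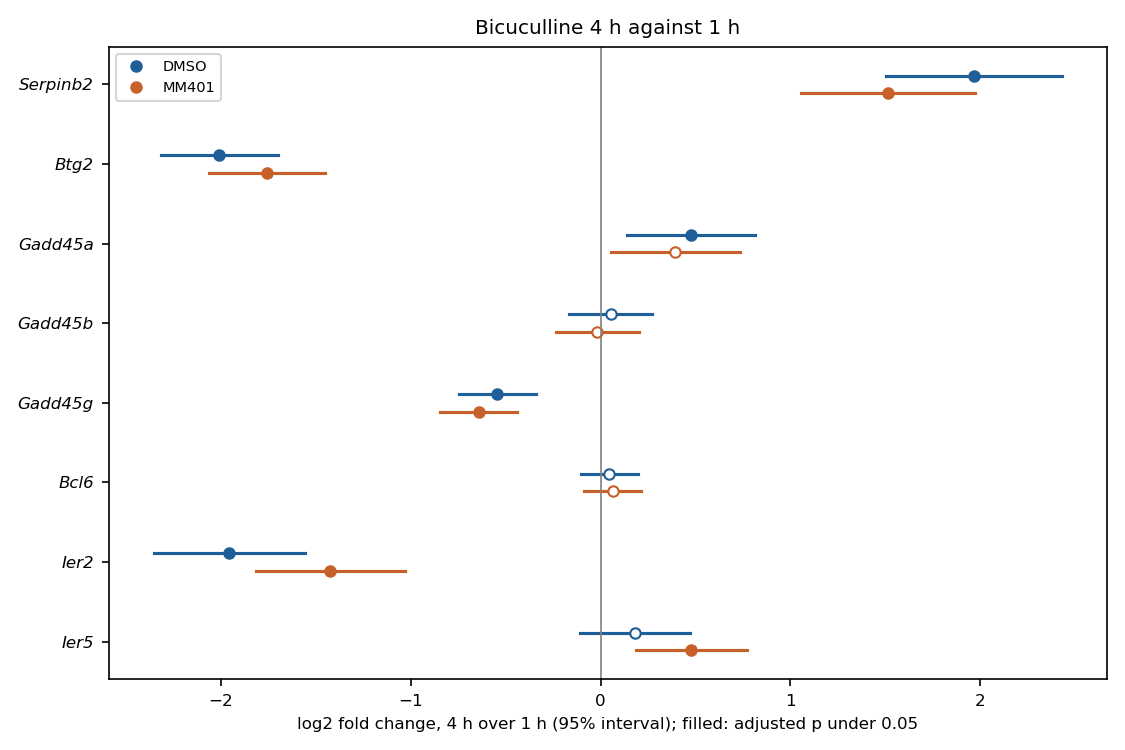
Log2 fold change of 4 h over 1 h of bicuculline (horizontal axis) for the 8 genes, in DMSO (blue) and MM401 (orange), with 95% intervals from the edgeR fit; filled points had an adjusted p under 0.05. Btg2, Ier2 and Gadd45g lie left of 0 and Serpinb2 right of it in both pretreatments, and the intervals of Gadd45b and Bcl6 cross 0.

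MM401 against DMSO addressed whether blocking MLL1 changes these levels, and edgeR called 0 of the 8 genes in each of the 3 matched conditions; DESeq2 also called 0. In water at 4 h, where 0.0826% of all tested genes were called, the 8 values ran from -0.33 (Btg2) to -0.067 (Bcl6) on the log2 scale, all below 0, with a median of -0.19 against -0.014 for all genes. None had an unadjusted p under 0.05, against 12.9% of all genes, and the libraries of the groups overlapped for each gene. This comparison rests on 2 MM401 libraries, and 1 DMSO library weighed heavily on it: without replicate 1 of DMSO in water, 1272 genes were called in place of 14, none of them among these 8. Without replicate 2 of MM401 the value of Btg2 was -0.63 and without replicate 1 it was -0.072. The sign of 5 of the 8 genes turned when 1 library was left out: without replicate 3 of DMSO Ier2 was 0.17, Gadd45g 0.025 and Bcl6 0.010, and without replicate 2 of MM401 Gadd45a was 0.14 and Serpinb2 0.021.

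After 1 h of bicuculline the differences ran from -0.085 (Ier5) to 0.32 (Serpinb2), where 0.0059% of all tested genes were called. Gadd45g had an unadjusted p under 0.05, with 0.21 ± 0.097 (edgeR adjusted p = 0.999), in a comparison where 3.18% of all genes did. After 4 h they ran from -0.13 (Serpinb2) to 0.45 (Ier2), where 0% of all tested genes were called. Ier2 was 4.84 ± 0.167 CPM in MM401 and 3.54 ± 0.153 CPM in DMSO (SD, n = 3 each), higher in 3 of 3 libraries, with a log2 fold change of 0.45 ± 0.19 that did not pass adjustment (edgeR adjusted p = 0.639). Its unadjusted p was under 0.05, as it was for 7.72% of all genes. Btg2 libraries did not overlap at 4 h either, 53.7 ± 2.997 CPM in MM401 against 46.6 ± 3.09 CPM in DMSO (0.21 ± 0.14, edgeR adjusted p = 0.701). Of all genes, 6.3% had MM401 libraries wholly above DMSO at that time. The interval for Bcl6 was the tightest, -0.17 to 0.13 and that for Serpinb2 the widest, -0.56 to 0.30.

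**Figure D3:**
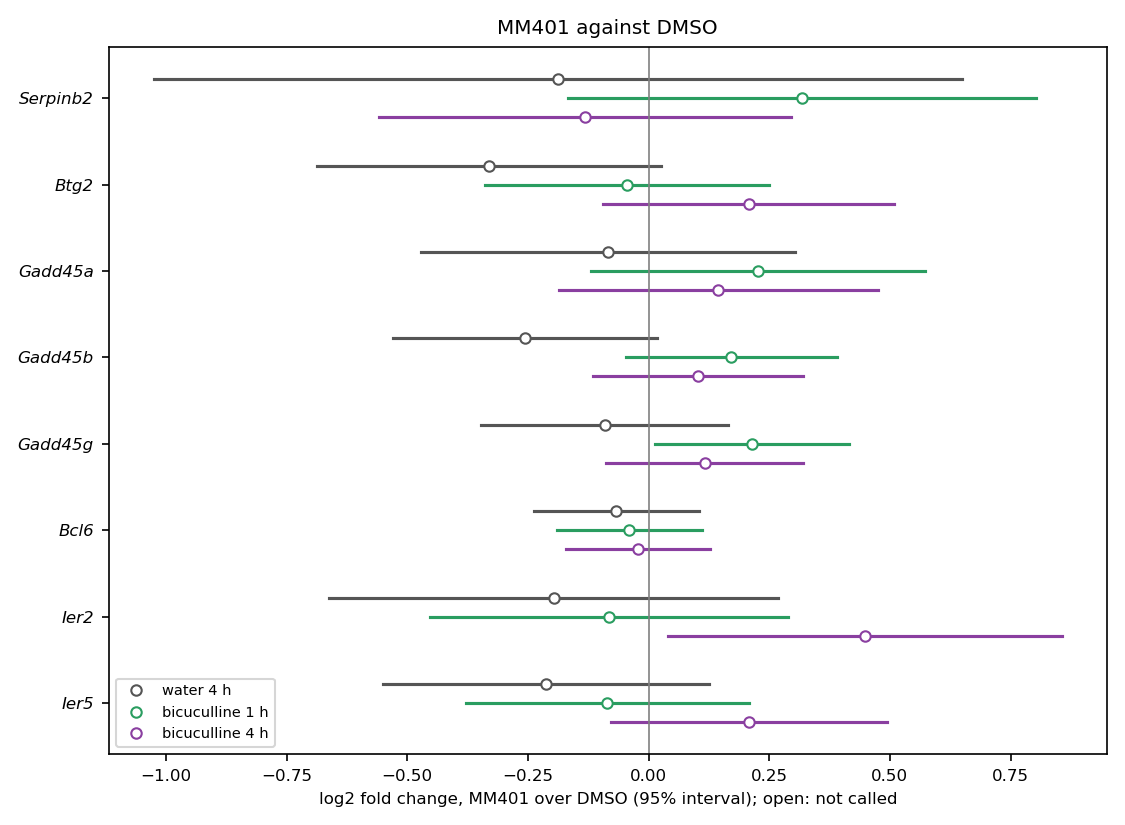
Log2 fold change of MM401 over DMSO (horizontal axis) for the 8 genes in water at 4 h (grey), bicuculline at 1 h (green) and bicuculline at 4 h (purple), with 95% intervals from the edgeR fit; open points were not called. No point is filled, all 8 values in water lie left of 0, and Ier2 at 4 h lies farthest right, at 0.45.

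Whether MM401 changed the response itself was tested as an interaction, the response under MM401 minus that under DMSO, each against its own water at 4 h. At 4 h edgeR called 0 of the 8 genes and 0% of all tested genes; DESeq2 called 0 of the 8 and 436 of all genes. The 8 values ran from 0.045 (Bcl6) to 0.64 (Ier2) on the log2 scale, with a median of 0.29 against 0.026 for all genes. All 8 were above 0 with DESeq2 and without TMM scaling, which moved the median of all genes by 0.20, but leaving out libraries turned the lowest values: Serpinb2 was -0.15 without replicate 2 of MM401 in water, and Bcl6 was -0.033 without replicate 3 of DMSO in water. Btg2 (0.54 ± 0.22), Gadd45b (0.36 ± 0.17) and Ier2 (0.64 ± 0.30) had an unadjusted p under 0.05, as did 15% of all genes, with edgeR adjusted p of 0.281, 0.324 and 0.317. Without replicate 1 of DMSO in water, Ier2 was called (0.86 ± 0.23, edgeR adjusted p = 0.0253), together with 1551 of all genes. Without replicate 3 of that group its value was 0.28 ± 0.21 (edgeR adjusted p = 0.693). Replicates 1 and 3 had the lowest and the highest level of Ier2 in that group, 2.54 and 5.78 CPM.

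At 1 h the interaction used the same water libraries, so its values are no second measurement of the same sign. They ran from 0.027 (Bcl6) to 0.51 (Serpinb2), all above 0 (7 of 8 with DESeq2). With water at 1 h as the MM401 reference, Serpinb2 was 0.12 in place of 0.51 and Ier5 0.0056 in place of 0.13. Under that reference Gadd45g was 0.51 in place of 0.31, Ier2 0.43 in place of 0.11 and Bcl6 0.10 in place of 0.027. Without replicate 3 of DMSO in water Ier2 was -0.27 and Bcl6 was -0.065. Of the 8 genes 0 were called by edgeR or DESeq2, against 0% of all genes by edgeR. Gadd45b had an unadjusted p under 0.05 (0.43 ± 0.17, edgeR adjusted p = 0.542), as did 7.82% of all genes. The change from 1 h to 4 h was also compared between pretreatments, with no water library involved. Here values ran from -0.45 (Serpinb2) to 0.53 (Ier2), 4 above 0 and 4 below (7 above 0 without TMM scaling, which moved the median of all genes by 0.16), with 0 of the 8 genes called by either tool, 0 with an unadjusted p under 0.05, and 0% of all genes called by edgeR. The 95% interval was -0.020 to 1.08 for Ier2, whose decline was the less steep in MM401, and -1.10 to 0.20 for Serpinb2.

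Time in water was compared in MM401, where edgeR called 0 of the 8 genes between 1 h and 4 h (DESeq2 0, unadjusted p under 0.05 in 0), against 0.867% of all tested genes. Values ran from -0.38 (Serpinb2) to 0.31 (Ier2). Gadd45g and Ier2 had both 4 h libraries above the 3 at 1 h, as did 15.7% of all genes. With the water libraries of MM401 at 1 h as the reference, the 1 h response in DMSO was 3.33 in place of 3.01 for Btg2, 2.62 in place of 2.32 for Gadd45g and 2.29 in place of 1.78 for Ier2 (log2 scale). For Serpinb2 it was lower, 2.003 in place of 2.20.

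The course of each gene over the 7 groups was next set against those of 12172 other genes with at least 2 CPM in their highest group, by the root mean square difference of centred group means on the log2 scale. Btg2 was closest to Arc (0.18), Ccn1 (0.19) and Fos (0.20), which encode a synaptic cytoskeletal protein, a secreted matricellular protein and an AP-1 subunit. Ier2 was closest to Egr2 (0.15), a zinc-finger immediate-early gene, then Dstn (0.19) and Arl4d (0.26). Gadd45g was closest to Pcsk1 (0.072), a prohormone convertase, Penk (0.15), the enkephalin precursor, and Tnfaip6 (0.15). Serpinb2 had no near match: Areg, an EGF receptor ligand, differed by 0.41, Inhba by 0.51 and Nms by 0.56. Gadd45b was closest to Syt4 (0.11), Slc16a1 (0.11) and Spty2d1 (0.12), and Bcl6 to Efnb2 (0.040), Glrx (0.045) and Rap1b (0.055). Gadd45a and Ier5 varied least. Gadd45a was closest to Havcr2 (0.038), Lilrb4a (0.043) and Psat1 (0.052), the last a serine synthesis enzyme. Ier5 was closest to Prkcd (0.045), Epm2aip1 (0.046) and Spi1 (0.053), the last encoding the myeloid factor PU.1. Such distances shrink for genes that vary little. Within the set, Gadd45a and Ier5 were the closest pair (0.14), Serpinb2 and Ier2 the farthest (1.65), and Gadd45b lay nearer to Gadd45g (0.40) than to Gadd45a (0.69).

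The pathways around the 8 genes were described with 9 lists of 112 other genes, of which 103 were tested. All 9 lists were chosen with earlier results of these data known, and genes were named from them for large changes. Counts and adjusted p-values of listed genes below are therefore a description and no independent evidence. In DMSO 57 of the 103 were called after 1 h of bicuculline (35 higher, 22 lower), against 44.6% of all genes, and 62 after 4 h (41 higher, 21 lower), against 49.2%. In MM401 53 were called at 1 h against water at 1 h (37 higher, 16 lower), against 39.9%, and 63 at 4 h (48 higher, 15 lower), against 44.6%. Without TMM scaling the median of all genes moved by -0.19 and -0.28 in DMSO and by -0.21 and -0.075 in MM401 at 1 h and 4 h. The share of upward calls over all genes then went from 44.9% to 21.2% and from 48.1% to 18.8% in DMSO, and from 45.4% to 16.3% and from 51.5% to 40.3% in MM401. The listed genes turned with it, to 23 higher and 37 lower at 1 h and 26 and 37 at 4 h in DMSO, and to 24 and 33 at 1 h in MM401, whereas 39 were higher and 16 lower at 4 h in MM401.

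The other members of the neuroprotective set moved upward together. Atf3, Npas4 and Nr4a1 (transcription factors), Inhba (the activin A subunit) and Ifi202b (an interferon-inducible gene) were higher in all 4 comparisons, 5 of 5 each time, with a median log2 fold change of 3.09 at 1 h and 2.92 at 4 h in DMSO; without TMM scaling it was 4 of 5 at 1 h in DMSO. The median of all genes was -0.038 and -0.024. Like the 8 genes they divided by time: from 1 h to 4 h in DMSO Npas4 fell by 1.00 ± 0.16 (edgeR adjusted p = 0.000143) and Nr4a1 by 1.22 ± 0.091 (2.19e-09), whereas Inhba rose by 2.21 ± 0.25 (7.86e-06), from 50.4 ± 9.48 to 233 ± 8.42 CPM. Inhba was also among the genes closest to Serpinb2. This list was written with the bicuculline responses known, so its direction is no independent evidence.

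Around Btg2, 3 of 7 tested genes of the BTG/TOB list were higher and 1 lower at 1 h in DMSO (3 and 3 without TMM scaling). Btg1 rose by 1.03 ± 0.11 (edgeR adjusted p = 2.22e-07) and Tob1, another antiproliferative family member, by 0.67 ± 0.12 (0.000209), and both fell from 1 h to 4 h, by 0.52 ± 0.11 (0.000576) and 0.75 ± 0.12 (9.55e-05). Around the GADD45 genes 4 of 12 partners were higher and 2 lower at 1 h in DMSO (0 and 6 without TMM scaling). Cdkn1a, the p21 inhibitor of cyclin-dependent kinases, had 0.51 ± 0.11 at 1 h (edgeR adjusted p = 0.000589, 0.0582 without TMM scaling) and rose by 0.75 ± 0.11 at 4 h (6.06e-06). Map3k4, the kinase that GADD45 proteins activate, rose by 0.62 ± 0.055 at 4 h (4.54e-09).

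Of 22 genes of p53 and the DNA damage response, 3 were higher and 6 lower at 1 h in DMSO (2 and 9 without TMM scaling), and 9 higher and 1 lower at 4 h (4 and 6 without TMM scaling). Sesn2, a stress-induced regulator of mTORC1, was below water at 1 h in DMSO (-0.46 ± 0.074, edgeR adjusted p = 3.64e-05) and above it at 4 h (0.65 ± 0.073, 1.69e-07). It rose by 1.11 ± 0.074 from 1 h to 4 h in DMSO (edgeR adjusted p = 2.97e-10) and by 1.10 ± 0.075 in MM401 (4.26e-10). Xpc, of nucleotide excision repair, fell by 0.53 ± 0.087 at 1 h in DMSO (3.89e-05) and by 0.58 ± 0.087 at 4 h (1.03e-05). In the BCL-2 family 4 of 14 were higher and 4 lower at 1 h in DMSO (2 and 4 without TMM scaling), and 4 higher and 6 lower at 4 h (2 and 7 without TMM scaling). Members of either function moved: Bcl2l11, which encodes the death-promoting BIM, rose by 1.47 ± 0.091 at 1 h (edgeR adjusted p = 2.40e-11), from 11.9 ± 1.73 to 32.9 ± 1.38 CPM, Bcl2 itself rose by 0.47 ± 0.051 (1.69e-07), and Bad, death-promoting, fell by 0.84 ± 0.11 (1.30e-06).

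Around Bcl6, 5 of 16 corepressor and Notch-target genes were higher and 4 lower at 1 h in DMSO (2 and 7 without TMM scaling), and 6 higher and 4 lower at 4 h (2 and 7). Hes5, a Notch target that BCL6 represses in developing cortex, fell by 1.77 ± 0.20 at 1 h (edgeR adjusted p = 3.75e-07), from 3.65 ± 1.25 to 1.09 ± 0.280 CPM, and rose by 1.60 ± 0.20 from 1 h to 4 h (2.00e-06). In MM401 it was not called at 1 h (0.14 ± 0.20 against water at 1 h, edgeR adjusted p = 0.628). It was higher than water at 4 h in MM401 (0.82 ± 0.21, edgeR adjusted p = 0.00341). The 1 h values rest on water at 4 h in DMSO and water at 1 h in MM401, so they are not a like comparison. From 1 h to 4 h Hes5 rose in MM401 too, by 1.20. Whether BCL6 acted on Hes5 here was not tested. Bcor, the corepressor, rose by 0.53 ± 0.067 at 4 h in DMSO (edgeR adjusted p = 9.03e-07). Around Serpinb2, 4 of 8 genes of the plasminogen activator system were higher and 1 lower at 1 h in DMSO. Plat, which encodes tissue plasminogen activator, rose by 1.44 ± 0.081 at 1 h (edgeR adjusted p = 4.54e-12), while Serpini1, neuroserpin, rose by 0.90 ± 0.073 at 4 h (1.44e-09). Of the 12 other serpins of clade B 6 were tested, with 0 higher and 3 lower at 1 h and 0 higher and 2 lower at 4 h in DMSO, and Serpinb8 fell by 1.13 ± 0.12 at 4 h (8.68e-08). In MM401 2 were higher and 2 lower at 4 h, with Serpinb9 up by 1.14 ± 0.26 (edgeR adjusted p = 0.00117) and Serpinb6b by 0.87 ± 0.25 (0.00653), each from under 1 CPM. From 1 h to 4 h in DMSO these 2 genes rose as well, Serpinb6b by 0.85 ± 0.22 (edgeR adjusted p = 0.00370) and Serpinb9 by 0.66 ± 0.21 (0.0174, and 0.0521 without TMM scaling).

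Around the IER genes, 7 of 13 genes were higher and 1 lower at 1 h in DMSO (6 and 4 without TMM scaling), and 9 higher and 3 lower at 4 h (7 and 4 without TMM scaling). The co-chaperone gene Dnajb1 rose by 1.44 ± 0.14 at 1 h (edgeR adjusted p = 3.43e-08) and Hsph1 by 0.88 ± 0.11 (4.50e-06), and Dnajb1 fell by 0.89 ± 0.13 from 1 h to 4 h (2.02e-05). At 4 h Hspa1a rose by 2.91 ± 0.34 (2.70e-07) and Hspa1b by 2.67 ± 0.28 (7.79e-08), each under 2 CPM on average. The inducible HSP70 genes are near-identical copies whose reads the counting could split between them, so each value is uncertain.

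**Figure D4:**
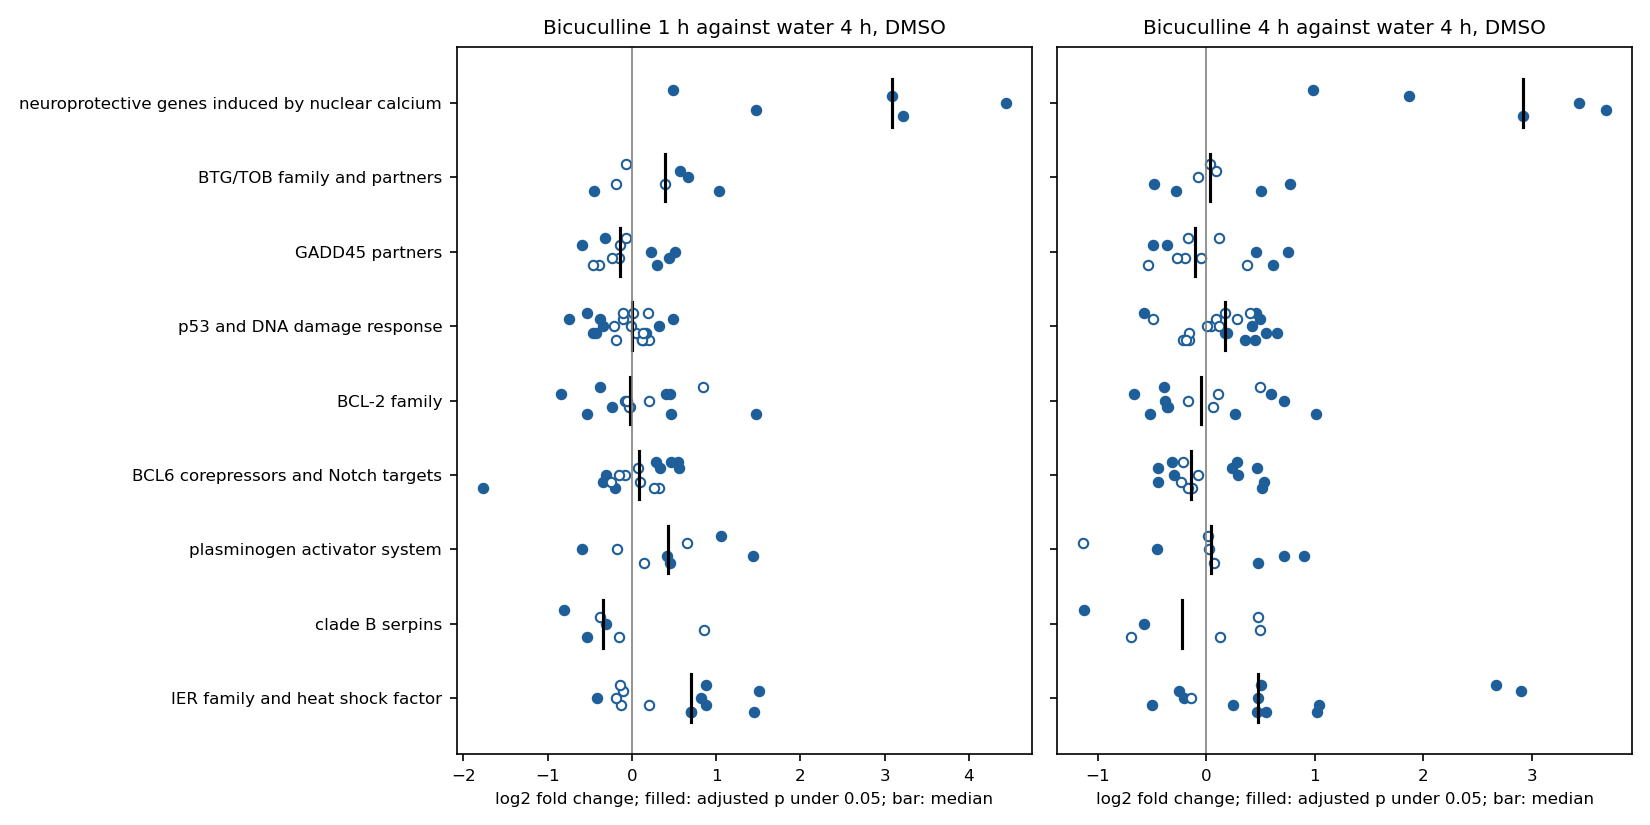
Log2 fold change of bicuculline over water in DMSO (horizontal axis) at 1 h (left) and 4 h (right) for the tested genes of the 9 lists; each point is a gene, filled points had an adjusted p under 0.05 in the edgeR fit and black bars are list medians. The 5 neuroprotective genes lie right of 0 at both times, while the points of every other list lie on both sides of 0 at 1 h.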

How the data were processed

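Nascent RNA from 21 libraries of 7 groups was analysed, with 1 shallow library left out. The authors deposited raw counts per gene over the whole gene span, and the submitters' processing notes name Bowtie2, UMI-tools, featureCounts and the build mm10; aligner settings and the use of strand are not given in the sources used here. Of 24984 genes, 412 are listed with several positions. Counts were fitted with edgeR 4.0.16 (R 4.3.3, limma 3.58.1): filterByExpr with a minimum count of 10 and a total of 15, TMM scaling, and 1 robust quasi-likelihood model over 20 libraries, with Benjamini-Hochberg adjustment over 16959 genes. A gene was called at an adjusted p under 0.05, intervals are 95%, and the common biological coefficient of variation was 8.77%. The p-values measure the spread between replicates, labelled as biological. Scripts were tested on simulated data.

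The 8 genes and the 9 lists were chosen with earlier results of these data known. Named from each list and comparison were up to 2 called genes in each direction with the largest change, a group mean of 1 CPM or more, and libraries that do not overlap. Part of the genes so named are given, chosen after their values were seen, and the others are not reported here. For each of the 8 genes the 3 genes closest in course are named. Same-numbered libraries deviated together, every correlation over 0.1, in 3 of 21 pairs of groups. Bicuculline at 4 h in DMSO and MM401 was the only one of these compared directly. DMSO with water at 4 h and MM401 with bicuculline at 4 h, which both enter the interaction at 4 h, was another. The numbers were not taken as pairs. Alternatives were DESeq2 1.42.0, library totals without TMM, no low-count filter or a minimum of 50, the replicate number as a block, only the groups compared, all 21 libraries, another water reference and leaving out each replicate.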

Additional observations from a re-analysis of the deposited data

How the results depend on the processing

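The count of the 8 genes called was within 1.5 times its value in 131 of 132 alternatives. The exception was the interaction at 4 h, where 1 of the 8 genes was called without replicate 1 of DMSO in water, in place of 0. Without 1 replicate at a time, 4 to 5 genes were called between 1 h and 4 h in DMSO and 4 to 6 in MM401. Of 1056 tested values of the 8 genes under the alternatives, 1046 kept their side of the threshold, 8 lost the call and 2 gained it, these last 10 all in Gadd45a, Ier5 or Ier2. The sign turned in 54 of the 1056, none of them called under either setting. With the replicate number as a block (replicate block), 0 of 72 calls changed and 10 were made with and without it; 5 of the 8 genes were called between 1 h and 4 h in either pretreatment. Of 57 correlations between same-numbered libraries, 25 were over 0.1 (median 0.090, from -0.23 to 0.28). Differently numbered libraries were not correlated for comparison, so these values do not decide whether the numbers mark pairs. Of the untested values of bicuculline against water, 25 of 416 moved by more than 1 SD.

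Counts over all genes were less stable. MM401 against DMSO in water at 4 h gave 14 genes, 162 with DESeq2, 4 without TMM scaling, 0 with only the groups compared or with the shallow library kept, and 0 to 1272 without 1 replicate. After 1 h of bicuculline it gave 1 gene, 14 with DESeq2 and 4 with the block, and after 4 h 0 genes, 7 with DESeq2. MM401 in water at 4 h against 1 h gave 147 genes, 275 with DESeq2, 328 with only those groups, 19 with the shallow library kept and as few as 14 without 1 replicate. The interaction at 1 h gave 0 genes, 5 with DESeq2, 97 without replicate 1 of DMSO in water and 233 with water at 1 h as the MM401 reference. Keeping the shallow library lowered the calls between 1 h and 4 h from 5805 to 3745 in DMSO and from 5691 to 3646 in MM401; the cause was not tested. Depth limits Serpinb2 most, with 14 to 53 counts in water.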
